A study of Mus musculus with 6 samples.

Results

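Metallothioneins and the genes that move zinc across membranes were followed in sorted blood endothelial cells of the mouse gut. The list holds 8 genes: the metallothionein genes Mt1, Mt2 and Mt3, the metal-sensing transcription factor gene Mtf1, the zinc exporter gene Slc30a1 (ZnT1) and the importer genes Slc39a8 (ZIP8), Slc39a10 (ZIP10) and Slc39a14 (ZIP14). The genes were chosen from earlier results of the same arrays, in which Mt2 was among the largest rises, so their levels and changes are descriptions and not independent evidence. Each gene was read through a probe set that the platform annotation assigns to it alone, with the highest mean over the 6 arrays where there were several. This gave 7 of the 8 genes a value, each from 1 probe set, out of 22180 genes on the array with such a probe set. Slc30a1 has no value here, since both probe sets that carry its symbol also carry that of 1700034H15Rik.

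Metallothioneins are small cysteine-rich proteins that hold zinc and copper and take up surplus or toxic metal ions. Their genes are textbook targets of MTF-1, which binds metal response elements (MREs) in DNA when free zinc rises, and they also answer to glucocorticoids, to cytokines that act through STAT3 and to oxidative stress. ZnT proteins lower zinc in the cytosol by export or by filling vesicles, and ZIP proteins raise it.

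Knockout mice carried Apcfl//fl together with Villin-CreERT2, a Cre that tamoxifen activates and whose villin promoter works in gut epithelium. Control mice are labelled WT with Apcfl//fl, and no Cre is named for them. Both groups were of mixed C57BL/6 x 129 background, received tamoxifen for 5 days and gave their intestines on day 6. Their ages are not given in the labels. Sorted cells were live and CD31-positive, without CD45, EpCAM or gp38, so Cre was not directed at the cells measured. Amplified RNA from 3 knockout and 3 control samples, labelled as biological replicates, was hybridised to 1 array each. Whether a sample was 1 animal or a pool is not given. The p-values rest on the spread between these samples, taken as 1 spread for both groups. For each gene this spread was drawn toward that of other genes of similar level, so it is not the gene's own spread alone.

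Values are log2 values per probe set, on which a difference of 1 is a doubling. They do not allow levels of different genes to be ranked, since probes differ in brightness, and a lower value in a bulk sample cannot tell fewer cells of a type from less RNA per cell. A gene counted as above background when its mean over the 6 arrays exceeded 4.12, a level that 90% of 1432 genes for olfactory, taste and vomeronasal receptors did not exceed. Of the 22180 genes 15287 did, and these were compared between the groups with limma. A gene passed when its p, adjusted by Benjamini and Hochberg's method, was under 0.05. Among the 15287 tested, 1.13% passed as higher and 1.48% as lower, and 2512 genes had an unadjusted limma p under 0.05. The counts of each list below are to be read beside these.

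Apc, the gene targeted in the epithelium, read 6.42, 6.24 and 6.38 in the knockout arrays and 6.29, 6.52 and 6.70 in the controls, which checks no label, since Cre was not directed at these cells. The endothelial marker Pecam1, which encodes CD31, averaged 11.4 in both groups, and all 12 pan-endothelial markers were above background. Of these 12, limma called 1 higher, Eng, by 0.26 (adjusted p = 0.021), and 5 had an unadjusted p under 0.05, with a median change of 0.07. Epcam was at 3.74 to 3.81 in the knockout arrays and at 3.87, 7.20 and 6.24 in controls 1, 2 and 3. All 14 enterocyte markers had lower means in the knockout, 13 of them past the threshold, and Fabp1, for a fatty acid binding protein, averaged 6.83 against 10.4 in the control. The mean log2 value over these markers was 4.98 to 5.43 in the knockout and 6.87, 8.88 and 8.47 in controls 1, 2 and 3, so that controls 2 and 3 held more epithelial transcripts than control 1. Ptprc, which encodes CD45, was near background in both groups, at means of 4.14 and 4.46. All 10 mural markers had lower means in the knockout, 6 past the threshold, with means over the list of 7.82 to 8.19 against 8.71 to 9.01. The T and NK cell markers had lower means in the knockout for all 7 genes, and limma called 0 of them, while 4 had an unadjusted p under 0.05. Of the fibroblast markers 1 of 6 tested was called lower, Col1a2, and of the macrophage markers 0 of 8, with 0 at an unadjusted p under 0.05. Of the B and plasma cell markers limma called 0 of 3 tested, with a median change of 0.41. The brightest, Ighm and Jchain, averaged 11.2 and 9.29 in the knockout and 10.6 and 8.88 in the control, far above background.

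Mt1 and Mt2 lie side by side on chromosome 8, at 94178883-94180327 and 94172618-94173567 of GRCm38.p6, with 5315 bases between the annotated genes. Mt3 lies 18469 bases from Mt2 on its other side. The DNA before the RefSeq start of Mt2 is shown because it holds matches to the MRE, through which MTF-1 is known to act, and the short stretches of Mt1 are its matches to the same motif. RefSeq places another, predicted transcript of Mt1 further upstream, so a longer stretch is not printed. Capitals mark the MRE core, searched as TGCACNC and TGCGCNC on both strands, and the sequences run 5′ to 3′ on the strand of the gene.
Mt2, the 250 bases before the start, chr8:94172368-94172617, + strand: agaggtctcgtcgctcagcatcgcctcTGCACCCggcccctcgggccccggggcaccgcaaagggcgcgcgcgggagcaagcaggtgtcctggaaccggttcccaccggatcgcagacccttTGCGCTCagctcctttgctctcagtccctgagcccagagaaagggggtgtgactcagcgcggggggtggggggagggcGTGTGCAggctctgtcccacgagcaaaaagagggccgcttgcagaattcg
Mt1, from 35 to 6 bases before the start, chr8:94179054-94179083, + strand: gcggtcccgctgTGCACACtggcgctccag
Mt1, bases 2 to 28 counted from the start as base 1, chr8:94179090-94179116, + strand: cTGCACTCcgcccgaaaagTGCGCTCg

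In RefSeq windows of 300 bases, 250 before and 50 after the start, Mt2 held 4 MRE matches and Mt1 held 3. Of 32851 such windows in the genome, 25.7% held at least 1 match, 1.97% at least 3 and 0.517% at least 4. The Mt2 matches began at 223, 128 and 50 bases before the start and at base 5, counted from the start as base 1. Those of Mt1 began 23 bases before the start and at bases 3 and 21. The Mt2 window also held 1 match to TGACNNNGC, the core of the antioxidant response element, 79 to 71 bases before the start and overlapping no MRE match. This motif, searched on both strands, is found in 12.4% of windows, and the Mt1 window held 0, while that of Slc30a1 and 1 of the 2 Slc39a8 windows held 1 each. Slc30a1 held 2 MRE matches, Mt3 1 and 1 of the 2 Slc39a8 windows 1. The windows of Mtf1 and Slc39a10 held 0, and Slc39a14 was not in the table. A match is only a description of the letters. The counts depend on where RefSeq places the start, and DNA beyond 50 bases after it was not searched. The counts of Mt1 and Mt2 therefore do not compare their whole promoters.

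Mt2 was higher in the knockout. The control arrays read 7.73, 7.99 and 8.17, and the knockout arrays 8.79, 10.5 and 9.84. The groups did not overlap, and the lowest knockout array, knockout 1, lay above the highest control. The mean rose from 7.96 ± 0.22 (SD, n = 3) to 9.69 ± 0.84 (SD, n = 3), a log2 change of 1.73 ± 0.34 (standard error of the limma fit) with a 95% interval of 0.96 to 2.51. This is 3.32-fold (adjusted p = 0.0368 by limma over all genes) and the 7th largest rise among 15287 genes, values given as a description because Mt2 was selected on this contrast.

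The rise was of very unequal size among the knockout samples. Measured from the control mean, it was 0.83 in knockout 1, 1.87 in knockout 3 and 2.49 in knockout 2. The standard deviation of Mt2 among knockout arrays, 0.84, was larger than that of 99.6% of genes above background, whose median was 0.16. Among the controls its standard deviation was 0.22, larger than that of 73.8% of genes. The call was lost when any single array other than knockout 1 was left out. Adjusted p was 0.0688 without knockout 2, 0.136 without knockout 3, 0.0773 without control 1, 0.0993 without control 2 and 0.098 without control 3, and it was 0.00594 without knockout 1. The log2 change stayed positive in these fits, between 1.35 and 2.18. The limma fit without a mean-variance trend gave an adjusted p of 0.079.

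**Figure D1:**
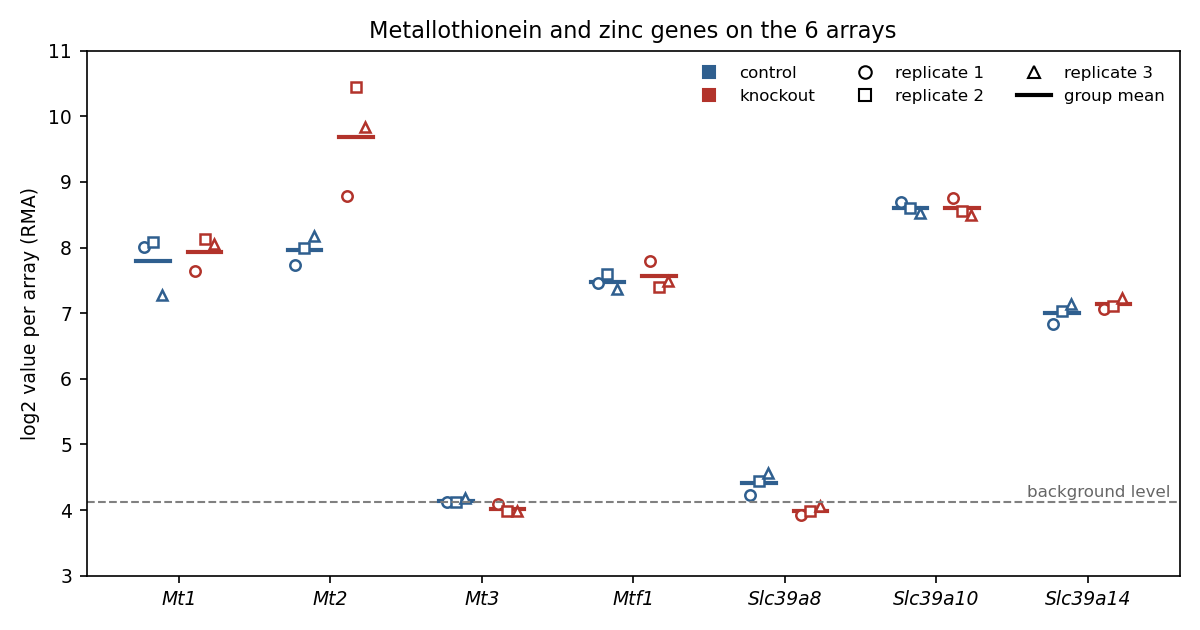
Log2 values of the 7 measured genes on each array, with controls in blue, knockouts in red, a symbol for each replicate number and bars at the group means; the dashed line is the background level of 4.12. Mt2 separates the groups, with knockout 1 at 8.79 nearest the controls, while Mt1 overlaps and Mt3 and Slc39a8 lie at or near background.

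Mt1, the neighbouring gene for the closely related protein, did not pass. Its control arrays read 8.01, 8.09 and 7.28 and its knockout arrays 7.64, 8.12 and 8.05. The groups overlapped, and control 3 lay apart from the other two controls. The log2 change was 0.15 ± 0.22, with an interval of -0.35 to 0.64 (limma adjusted p = 0.798), and was -0.11 without control 3. The standard deviation of Mt1 among controls, 0.44, exceeded that of 96.1% of genes.

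The difference between Mt2 and Mt1 within each array, which cancels any effect that shifts both probe sets alike, was -0.28, -0.099 and 0.89 in controls 1, 2 and 3. In knockouts 1, 2 and 3 it was 1.15, 2.33 and 1.78. The groups did not overlap in this difference, whose mean went from 0.17 ± 0.63 (SD, n = 3) to 1.75 ± 0.59 (SD, n = 3). Mt2 was chosen for its rise in this contrast, so the difference is a description, and 3 against 3 arrays cannot give a two-sided exact permutation p below 0.1. Mt1 and Mt2 transcripts are alike in sequence, and cross-hybridisation between their probe sets was not tested.

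Mt3, the metallothionein known mainly from brain, was at background. Its values ran from 3.99 to 4.19 over the 6 arrays, with means of 4.02 in the knockout and 4.14 in the control, and it was left out of the comparison. Mt4, known from stratified epithelium, was below background at means of 3.76 and 3.50.

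Mtf1, for the zinc-sensing activator of the metallothionein genes, was well above background and at similar values in both groups. The control arrays read 7.45, 7.60 and 7.37 and the knockout arrays 7.80, 7.40 and 7.49, and the ranges overlapped. The log2 change was 0.089 ± 0.13, with an interval of -0.21 to 0.39 (limma adjusted p = 0.798), and was -0.031 without knockout 1. Another probe set that carries the Mtf1 symbol is shared with 1110065P20Rik and was not used.

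Of the importers, Slc39a10 and Slc39a14 were measured well above background. Slc39a10, for a plasma membrane zinc importer, read 8.70, 8.60 and 8.53 in the controls and 8.76, 8.56 and 8.49 in the knockouts. These ranges nearly coincide. Its change of -0.0074 ± 0.10 has an interval of -0.23 to 0.22 (limma adjusted p = 0.982). Slc39a14, for an importer of zinc, iron and manganese that is known to respond to interleukin-6 in liver, read 6.84, 7.04 and 7.15 in the controls and 7.06, 7.11 and 7.24 in the knockouts. Its change was 0.13 ± 0.13, with an interval of -0.15 to 0.41 (limma adjusted p = 0.671).

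Slc39a8, for a zinc and manganese importer, was near background, with the knockout arrays below it. The controls read 4.23, 4.44 and 4.56 and the knockouts 3.92, 3.98 and 4.05, so the groups did not overlap. With each knockout array raised to the background level of 4.12, the knockout mean was 1.22-fold lower, a description and not a lower limit. The control arrays themselves lay below 4.83, a level that 95% of the receptor genes did not exceed. The fitted change of -0.42 ± 0.13 did not pass (limma adjusted p = 0.146). Because it passed the filter through its control arrays alone, its place among the tested genes leans toward a difference. Enterocyte and mural markers were also lower in the knockout, and their part in this difference was not tested. Among the controls, Slc39a8 was lowest in control 1, where the enterocyte mean was lowest and the mural mean, at 9.01, highest.

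Altogether 1 of 6 tested members was called higher and 0 lower, against 1.13% and 1.48% of all tested genes (2.61% in either direction). With 6 genes chosen in view of these values, that share is not a result about the group. The groups did not overlap for 2 of the 6, Mt2 and Slc39a8, against 22.1% of all tested genes. The median change of the 6 members was 0.11, beside -0.017 over all genes.

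The rest of the zinc machinery gave no call. The list of other metallothionein, ZnT and ZIP genes has 21 names, of which 20 had a probe set of their own (Slc30a10, for a manganese exporter, had none) and 16 were above background. Slc30a8, Slc39a2, Slc39a12 and Mt4 were below it. Of the 16, limma called 0 at the adjusted threshold, and 0 had an unadjusted p under 0.05, beside 2512 of all 15287 tested genes. Changes ran from -0.35 for Slc39a4 to 0.30 for Slc39a13, with a median of 0.019, and the lowest adjusted p was 0.338, for Slc39a1. The 95% intervals of the 16 changes lay between -0.85, the lower end for Slc39a4, and 0.72, the upper end for Slc30a6. Slc39a4, the importer of dietary zinc in enterocytes, averaged 4.49 ± 0.33 in the knockout and 4.84 ± 0.36 in the control (SD, n = 3), and its groups overlapped. Slc30a4, for a vesicular zinc transporter, was the 1 gene of the 16 whose groups did not overlap, at 7.01, 7.10 and 7.02 in the knockouts and 6.70, 6.91 and 6.98 in the controls. Its change of 0.18 ± 0.12 did not pass (limma adjusted p = 0.528).

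**Figure D2:**
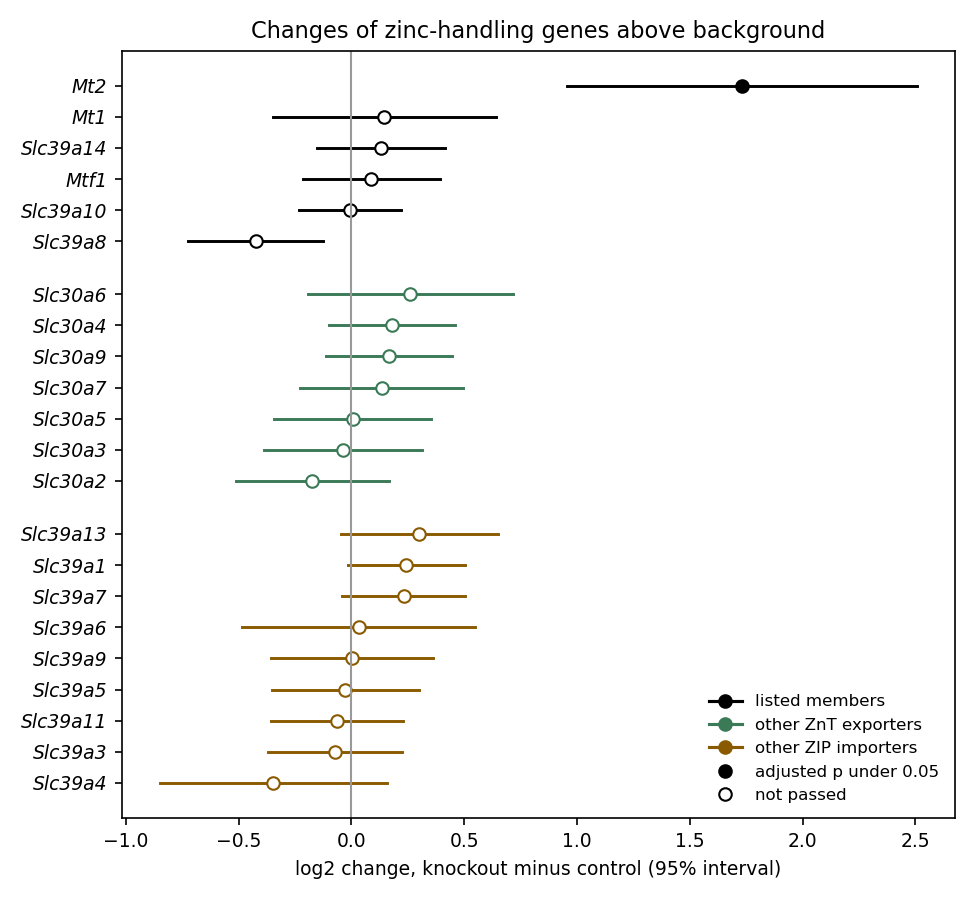
Log2 change, knockout minus control, with its 95% interval for the 6 members and the 16 other zinc transporter genes above background; filled points passed an adjusted p of 0.05. Mt2 at 1.73 stands alone to the right, and the interval of Slc39a8 lies below 0 while its adjusted p of 0.146 missed the threshold.

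Other known MTF-1 targets gave no call. Of 9 listed, 6 were above background and limma called 0, with 2 at an unadjusted p under 0.05 and a median change of -0.20. These were Selenow, for a small selenoprotein, at -0.32 ± 0.084 (adjusted p = 0.0877) and Ndrg1, a gene induced by low oxygen, at -0.28 ± 0.087 (adjusted p = 0.147), both named after their values were seen. Of 9 measured copper genes limma called 0, with 1 at an unadjusted p under 0.05. This was Atp7b, for a copper-exporting ATPase, at -0.66 ± 0.18 (adjusted p = 0.107), whose name was chosen after its value was seen.

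Of 14 tested iron genes, 1 passed. Fth1, the ferritin heavy chain, which stores iron, fell by 0.20 on the log2 scale (standard error 0.042, limma adjusted p = 0.0437). The knockout arrays read 11.63, 11.61 and 11.62 and the control arrays 11.83, 11.83 and 11.80. The groups did not overlap and each spanned little, but the call was lost when any 1 of the 6 arrays was left out, with adjusted p from 0.0996 to 0.129.

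Glucocorticoid and STAT3 targets were set beside Mt2 because both pathways are known to induce metallothioneins. Of 14 glucocorticoid targets, Fkbp5, for a chaperone of the receptor, rose by 1.42 ± 0.22 (adjusted p = 0.0146) and Glul, for glutamine synthetase, fell by 0.35 (standard error 0.059, adjusted p = 0.021). The other 12 did not pass in the limma fit, and the median change was 0.15. Fkbp5 missed the threshold when knockout 3 (adjusted p = 0.0669) or control 3 (adjusted p = 0.058) was left out, and Glul missed it without knockout 2, knockout 3, control 2 or control 3 (adjusted p from 0.0541 to 0.0869). Of 15 STAT3 and acute-phase genes, limma called 5 higher and 0 lower, against 1.13% and 1.48% of all tested genes, with a median of 0.11. The 4 with the smallest p were the protease inhibitor Timp1 at 1.66 ± 0.21, the serum amyloid Saa3 at 1.12 ± 0.17, the glycoprotein Lrg1 at 0.56 ± 0.097 and the receptor Il4ra at 0.50 ± 0.087. Timp1 kept its call when each array was left out in turn, Saa3 lost it without control 3 (adjusted p = 0.0593), Lrg1 lost it without 4 of the arrays (knockouts 1 to 3 and control 2, adjusted p up to 0.0725) and Il4ra without 5 of them (all but control 1, adjusted p up to 0.088). The fifth, Serpina3n, lost its call without any 1 of the 6 arrays (adjusted p from 0.0508 to 0.125). Genes of the list that were lower and missed the threshold include Fgl2 at -0.51 (adjusted p = 0.0546), Socs3 at -0.43 (adjusted p = 0.069) and Junb at -0.42 (adjusted p = 0.078), named after their values were seen.

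The genes nearest to Mt2 in pattern were Inhbb, Fkbp5, Fkbp11, Plaur and an immunoglobulin heavy chain variable gene. Nearness is the root mean square difference, over the 6 arrays, of log2 values centred on each gene's own mean, and these 5 had differences of 0.32 to 0.40. All 5 passed the comparison themselves, which is no separate result, since the measure favours genes that differ between the groups as Mt2 does. The immunoglobulin gene lost its call without knockout 2, knockout 3, control 1 or control 2 (adjusted p up to 0.157). Inhbb, an activin subunit gene, read 7.46, 8.14 and 7.85 in the knockouts and 6.22, 6.23 and 6.57 in the controls, so that knockout 1 was its lowest knockout and knockout 2 its highest, as for Mt2. The genes nearest to Mt1 were Hoxa4, Zfp324, Hadhb, 9930104L06Rik and Klhl21, at differences of 0.091 to 0.12, and limma called none of these 5 (adjusted p from 0.633 to 0.882). In all 5, control 3 was the lowest of the controls, as in Mt1. Mt1 and Mt2 had no gene in common among their nearest 5, which follows from how far apart their own profiles lie. The low control 3 and the absent calls of the genes nearest to Mt1 also follow largely from the measure and are no separate results.

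**Figure D3:**
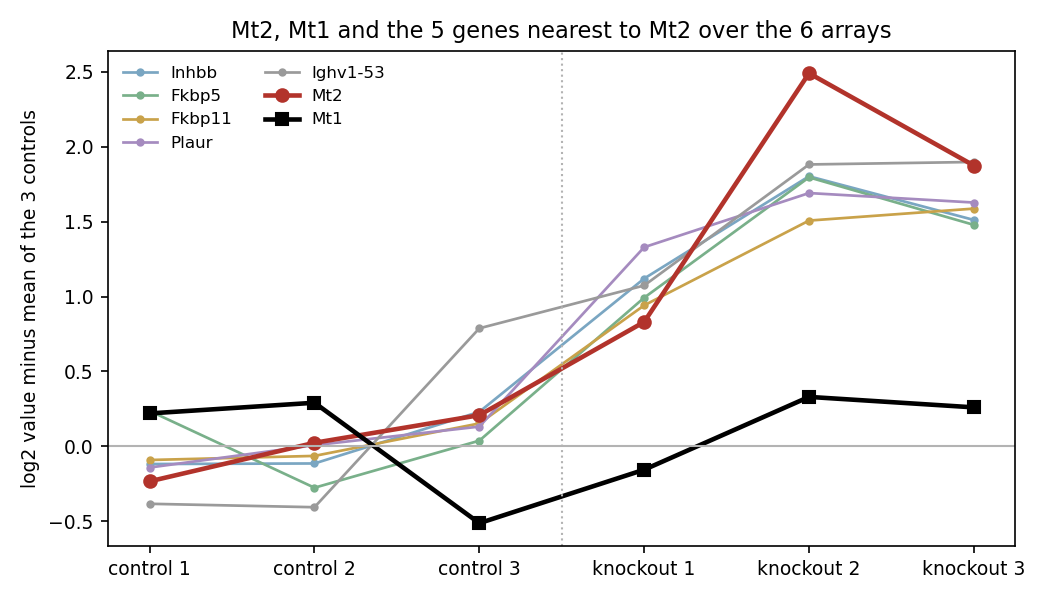
Log2 value minus the mean of the 3 controls, by array, for Mt2, Mt1 and the 5 genes nearest to Mt2; lines only join the points of a gene, since the arrays have no order. Mt2 stands 0.83, 2.49 and 1.87 above its control mean in knockouts 1, 2 and 3, while Mt1 stays between -0.51 and 0.33 on all arrays.

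Within the knockout group, Mt1 and Mt2 had the same order of arrays, with knockout 1 lowest, knockout 3 next and knockout 2 highest. This order was noticed after the values were seen. It held for 18.2% of all genes above background, for 6 of the 14 glucocorticoid targets (42.9%; Fkbp5, Tsc22d3, Per1, Zbtb16, Klf9 and Dusp1) and for 2 of the 15 STAT3 genes (13.3%). It also held for 3 of 7 other ZnT genes (42.9%), 2 of 9 other ZIP genes (22.2%) and 1 of 6 other MTF-1 targets (16.7%). Of the copper genes it held for 2 of 9 (22.2%), and of the iron genes for 0 of 14. Among markers it held for 4 of 7 T and NK cell genes (57.1%) and 4 of 14 enterocyte genes (28.6%). It held for 2 of 7 goblet cell, 1 of 4 Paneth cell, 1 of 5 lymphatic and 1 of 10 mural genes. It held for 0 of 12 pan-endothelial, 0 of 8 macrophage, 0 of 6 fibroblast, 0 of 6 pan-epithelial and 0 of 3 B and plasma cell genes. The means of the glucocorticoid, STAT3, other MTF-1 target, enterocyte, pan-epithelial and goblet cell lists had this order as well. With 3 arrays, no difference between these shares was tested.

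The epithelial transcripts moved against Mt2 between the groups. The enterocyte mean was lower in the knockout while Mt2 was higher, and Mt2 was lowest in control 1, the control with the fewest epithelial transcripts. Within the knockouts the enterocyte mean had the same order of arrays as Mt2. The part of epithelial transcripts in the Mt2 values was not tested. Against control 1 alone the log2 change of Mt2 was 1.96, a size that follows from control 1 having the lowest Mt2 value of the controls. The change of Mt1 in that setting was -0.075. Of 5 measured lymphatic markers, limma called 1 higher, Lyve1, by 1.13 ± 0.23 (adjusted p = 0.0406), and the other 4 did not pass, with changes from -0.30 for Pdpn to 0.32 for Mmrn1. Pdpn encodes gp38, against which the cells were sorted, and averaged 5.11 in the knockout and 5.42 in the control. The mean over the list was 5.11 to 5.84 in the knockout and 4.93 to 5.38 in the control, and its part in the Mt2 values was not tested.

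**Figure D4:**
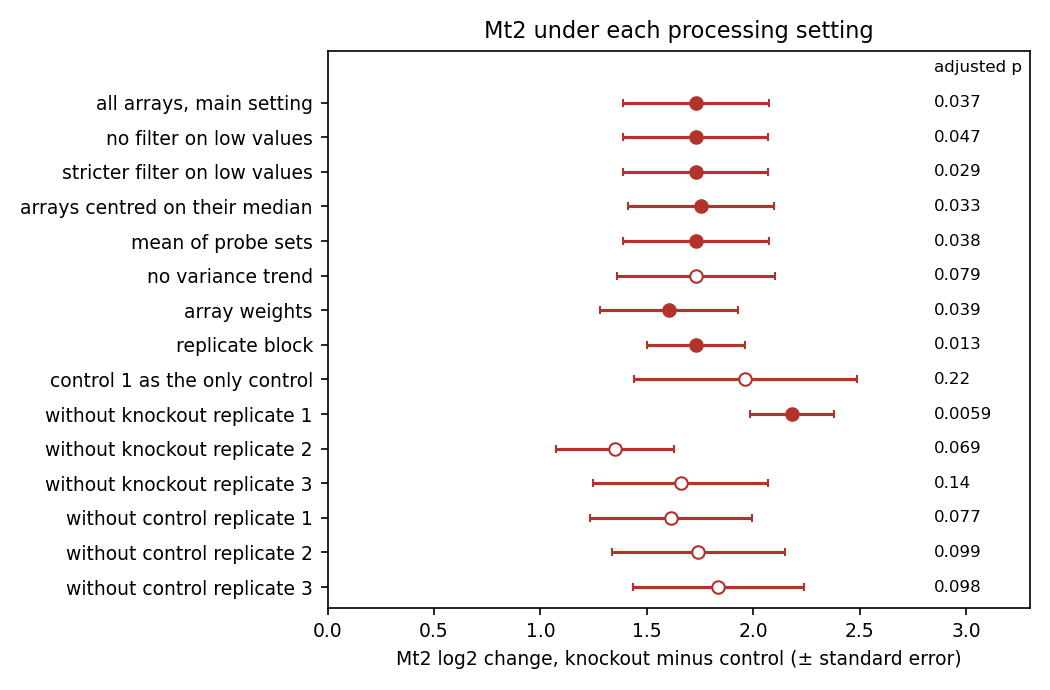
Mt2 log2 change, knockout minus control, with its standard error under each processing setting, and the adjusted p at the right; filled points passed 0.05. The change lies between 1.35 and 2.18 throughout, and 7 of the 14 alternatives end the call.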

How the data were processed

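The authors deposited log2 values per probe set, made per the submitters' processing notes with RMA in oligo, which corrects background, quantile-normalizes across arrays and summarises probes. For neither tool is a version given in the sources used here. Array medians lay between 4.77 and 4.81. Symbols came from the platform annotation: 23521 of 41345 probe sets carried 1, 1814 several and 16010 none. The 3 knockout and 3 control arrays entered a limma 3.58.1 fit (R 4.3.3) over 15287 genes, with eBayes moderation along a mean-variance trend and two-sided p-values. This fit was tested on simulated data with independent noise for each gene and array. Such data hold no effect that many genes of an array share, so the fit was not checked against one. Promoter windows and sequences are those of RefSeq on GRCm38.p6. Members, gene lists, tests and alternatives were chosen with earlier results of these data known. The rule for named genes took all members, other zinc genes that passed (none did), Slc39a4 and Slc30a10, up to 4 passing genes of each other pathway list by p, the 5 nearest to Mt1 and to Mt2, Epcam, Pecam1, Ptprc and the 2 brightest of each marker list, not all of which are given. Other genes were named after their values were seen. The replicate numbers were not used to pair the arrays in the main fit, and the labels do not say whether they do.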

Additional observations from a re-analysis of the deposited data

How the results depend on the processing

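With 3 arrays per group, 1 array decides many calls. The count of changed genes was 399, and was 139 without the variance trend, 52 with control 1 as the only control and 91 to 379 when each array was left out in turn. The count of changed members was 1, and was 0 without the variance trend, 0 with control 1 as the only control and 0 to 1 when each array was left out. Mt2 kept its direction in all 14 alternatives and its call in 7 of them, with adjusted p from 0.00594 to 0.224. The list of other zinc genes had 0 calls by limma in all 14.

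Changes near 0 turned sign. Mt1 went from 0.15 to -0.075 with control 1 as the only control and to -0.11 without control 3 (0.30 at most with an array left out), and Mtf1 went to -0.031 without knockout 1 (0.17 at most). Slc39a10 went from -0.0074 to 0.016 with arrays centred on their median, to 0.0056 with array weights, to 0.015 without knockout 2, to 0.047 without knockout 3 and to 0.036 without control 1, and with an array left out it was at its lowest, -0.084, without knockout 1. Slc39a8 and Slc39a14 kept their direction, and Slc39a8 was not tested under the stricter filter on low values. With the replicate number as a block (replicate block), 394 genes changed, 1 member among them, and Mt2 had an adjusted p of 0.0133. Same-numbered arrays deviated together with correlations of -0.020 to 0.039 over genes, and differently numbered arrays with at most 0.034. The labels do not say whether the numbers pair the arrays. A correlation over all genes cannot exclude a pairing that affects only some of them. For the genes named beside the members, the fits without each array were added after seeing the data.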
